A study of Arabidopsis thaliana with 12 samples.

Results

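The 85 genes described here are encoded in the plastid and mitochondrial genomes of Arabidopsis and were measured by 92 probe sets of the ATH1 array, out of 22746 probe sets without the controls. The rule used annotation and no signal: each probe set carried 1 annotated gene, and that gene lay outside the nucleus. Of these, 69 probe sets stood for 69 plastid genes (locus tags beginning ArthCp), and 23 stood for 16 mitochondrial genes, because nad1 had 7 probe sets and nad5 had 2. The gene table of assembly TAIR10.1 lists 78 plastid and 32 mitochondrial protein-coding symbols. A further 20 probe sets with several annotated genes, at least 1 of them an organelle gene, were left out.

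RNA came from roots of 10-day-old Arabidopsis thaliana (Columbia), either wild type or chl1-5, which carries a mutated gene for CHL1, a transporter of nitrate. Seedlings of both genotypes had grown under continuous light with sucrose and 12.5 mM ammonium succinate as their only nitrogen, and had then spent 3 h in that salt at pH 5.5. The roots were taken at once after washing (T0), or after 0.5 h in medium where 25 mM KNO3 replaced the ammonium salt (T0.5), so the step from T0 to T0.5 also holds a loss of ammonium and a transfer. The 4 groups are therefore WT T0, WT T0.5, chl1-5 T0 and chl1-5 T0.5, each with 3 arrays, and each array was made from about 900 pooled seedlings. The labels call each replicate number an independent experiment, and both genotypes shared a mesh within it.

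Plastids and mitochondria keep small genomes of their own. The plastid genome encodes part of both photosystems (psa and psb), of the cytochrome b6f complex (pet), of the ATP synthase (atp) and of an NADH dehydrogenase-like complex (ndh), together with subunits of a bacterial-type RNA polymerase (rpo) and of the plastid ribosome. The mitochondrial genome encodes subunits of respiratory complex I (nad) and of cytochrome c oxidase (cox), and proteins of cytochrome c maturation (ccb names). Root plastids are mostly non-photosynthetic but carry the same genome as chloroplasts. In plant organelles a poly(A) tail marks a transcript for decay, while the standard Affymetrix labelling of that time is known to prime from poly(A), so a signal here need not follow the full-length transcript. A large copy of the mitochondrial genome also lies in the nuclear genome of Columbia, and the probe sets cannot tell its transcripts from those of the organelle. The probe sets of matR, orfX, nad6, ccb452 and 1 of nad5 are of a type that may match several similar sequences.

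Signals are MAS5 intensities on a linear scale that the authors had already brought to a common trimmed mean near 500. They measure a transcript relative to the rest of its array, and the signal of one probe set was not set against that of another. In whole roots, fewer cells or organelles and less RNA in each cannot be told apart. CHL1 had no named probe set, so the mutated gene was not checked. As signs of tissue and RNA quality, EXPA7, a root-hair expansin, lay between 627.0 and 1410 and the leaf marker RCA, Rubisco activase, between 538.9 and 697.8 over the 12 arrays, and the 3'/5' ratio ran from 0.86 to 1.38 for the GAPDH controls, from 1.68 to 2.24 for ubiquitin and from 9.72 to 18.4 for actin. RCA differed between T0 and T0.5 by 0.03 on the log2 scale in wild type and by 0.02 in chl1-5 (limma adjusted p of 0.93 and 0.95). EXPA7 fell by 0.79 and 0.73 (adjusted p of 0.017 and 0.033), and NRT2.5, the other named root marker and a nitrate transporter, differed by −0.66 and −0.83 (adjusted p of 0.17 and 0.10). Their part in the organelle values was not tested.

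A probe set was tested when it reached the 40th percentile of its array on at least 3 arrays, which 14291 probe sets did. Among the members, 48 plastid and 16 mitochondrial probe sets passed and 28 did not. By complex, 3 of 5 psa, 10 of 15 psb, 3 of 6 pet, 4 of 6 atp, 4 of 10 ndh, 3 of 4 rpo and 14 of 15 plastid ribosomal probe sets were tested, with 7 of the 8 other plastid genes. On the mitochondrial side these numbers were 9 of 15 for nad, 2 of 2 for cox and 3 of 4 for cytochrome c maturation. matR, an intron maturase, and orfX, which encodes a TatC-like translocase and is called mttB in the gene table, were tested too. Most members left out were dim throughout: 17 plastid and 5 mitochondrial ones stayed below the 40th percentile on every array. Those that reached it on 1 or 2 arrays were atpH, petG and both nad5 probe sets (1 array each) and psbA and ycf3 (2 arrays each). psbA, the reaction-centre protein D1 of photosystem II, ranged from 34.7 to 117.5.

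The mean signal of the 48 tested plastid probe sets (geometric mean over probe sets) was 658.7, 541.6 and 435.2 on the WT T0 arrays of replicate numbers 1, 2 and 3, and 592.1, 684.5 and 514.9 on the WT T0.5 arrays. In chl1-5 it was 533.7, 504.1 and 365.6 at T0 and 697.9, 543.4 and 608.6 at T0.5. The T0 and T0.5 arrays overlapped in wild type and did not in chl1-5, where the lowest T0.5 array lay just above the highest T0 array. The 16 mitochondrial probe sets gave 237.2, 163.3 and 202.5 in WT T0, 206.6, 166.7 and 178.4 in WT T0.5, 226.5, 146.7 and 179.6 in chl1-5 T0, and 240.0, 166.9 and 197.0 in chl1-5 T0.5. There the order of the replicate numbers was the same in every group, with number 1 highest and number 2 lowest, and the groups overlapped throughout. Over all 14291 tested probe sets the mean log2 signal of an array stayed between 8.92 and 8.99, a level that the authors' scaling of each array holds nearly fixed.

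**Figure D1:**
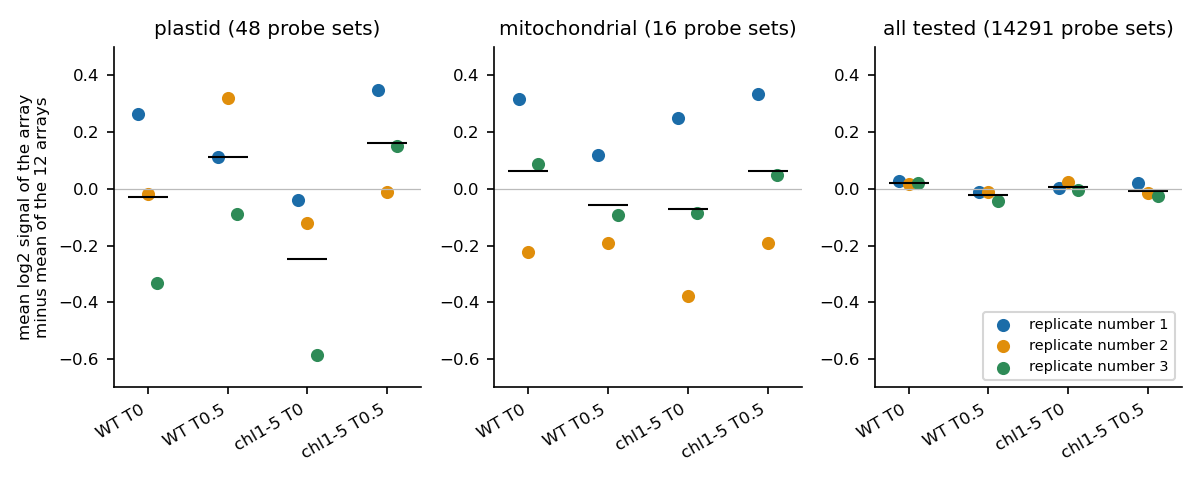
Mean log2 signal of each array minus the mean of the 12 arrays, for the 48 plastid, the 16 mitochondrial and all 14291 tested probe sets. Points are arrays, colours are replicate numbers and black bars are group means; the mitochondrial points keep the order 1, 3, 2 in all 4 groups, while the points of all tested probe sets, which the authors' scaling holds nearly level, lie close to 0.

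In wild-type roots no tested organelle member passed the test over 0.5 h in nitrate in the fit without the replicate number. With the replicate number as a block, 1 nad1 probe set passed (1.56% of members, against 11.8% of all tested probe sets). The limma fit over the 4 groups called 0 of 64 tested members, against 5.58% of all tested probe sets. At an unadjusted p under 0.05 it left 1 member, rpl33 (1.56%, against 19.3% of all tested probe sets). The blocked fit left 6 at that level, 4 of them lower (9.38%, against 26.9% of all tested probe sets). As a description, the median log2 difference (T0.5 minus T0) was 0.12 over the plastid members, with 35 of 48 above 0, and −0.14 over the mitochondrial members, with 4 of 16 above 0. Over all tested probe sets the median was −0.09 and 32.9% were above 0.

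rpl33, a protein of the large plastid ribosomal subunit, had signals of 1761, 1785 and 1820 at T0 and 1581, 1203 and 1378 at T0.5 in wild type. The groups did not overlap, and the log2 difference was −0.38 (SE 0.15, adjusted p = 0.18). psbE, which encodes a subunit of cytochrome b559 in photosystem II, went from 1363, 1579 and 1438 to 1287, 1155 and 1141 (log2 difference −0.29, SE 0.13, adjusted p = 0.27). Its small photosystem II neighbour psbL had a difference of −0.32 (SE 0.18), and it too kept all T0.5 arrays below all T0 arrays. With 1 nad1 probe set, these were the 4 members whose wild-type groups did not overlap with T0.5 lower, against 17.6% of all tested probe sets. No member had all its T0.5 arrays higher, against 7.76% of all tested probe sets.

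The largest positive wild-type differences belonged to rps15, psbM and rpl20 among plastid members. rps15, a small-subunit ribosomal protein, had 325.5, 98.5 and 81.9 at T0 and 304.3, 216.0 and 189.9 at T0.5 (log2 difference 0.75, SE 0.63, adjusted p = 0.56). The arrays of replicate number 1 were the highest of both groups, and numbers 2 and 3 differed within themselves by 1.13 and 1.21. psbM, a small photosystem II protein, had 4047, 7522 and 8467 at T0 and 10325, 9835 and 7796 at T0.5 (0.54, SE 0.27, adjusted p = 0.30), and those groups overlapped. rpl20, of the large ribosomal subunit, differed by 0.51 (SE 0.78).

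Among the mitochondrial members, nad1 carried the lowest wild-type value. Its 5 tested probe sets, all for the same complex I subunit, had log2 differences between −0.67 and −0.09. The first of these read 199.8, 114.4 and 159.9 at T0 and 140.7, 66.3 and 97.3 at T0.5, lower at T0.5 within each replicate number (by −0.51, −0.79 and −0.72). The replicate numbers pair the arrays, and with them as a block in the fit this probe set fell (SE 0.20, limma adjusted p = 0.046, against 0.42 without the block), the single member called there, against 11.8% of all tested probe sets. It was not called when any 1 wild-type array other than T0 replicate 1 was left out. The other 4 nad1 probe sets did not pass in either fit.

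The ccm and nad members lay mostly below 0 in wild type. All 3 tested genes of cytochrome c maturation had negative differences within every replicate number, and ccb382 (ccmFN1 in the gene table) had the largest at −0.37 (SE 0.19, adjusted p = 0.31), from 440.4, 504.1 and 377.1 to 332.7, 447.8 and 258.2. orfX gave the highest mitochondrial difference, 0.34 (SE 0.31), followed by nad4, of complex I, with 0.20 (SE 0.56) and matR with 0.04. Of 16 mitochondrial members 8 were lower at T0.5 within all 3 replicate numbers (50.0%, against 34.8% of all tested probe sets). Several of these 8 were nad1 probe sets, so the share counts 1 gene more than once. With the probe sets of each gene averaged, the mitochondrial median in wild type was −0.11.

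In chl1-5 roots the plastid members lay higher after nitrate, and 1 of them, clpP, passed the test. clpP encodes the proteolytic subunit of the Clp protease, one of the few plastid genes with a product needed outside photosynthesis and gene expression. Its signals were 765.9, 936.8 and 470.1 at T0 and 1525, 1254 and 1935 at T0.5, with no overlap. It rose by 1.15 on the log2 scale (2.22-fold, SE 0.29, limma adjusted p = 0.0498), and in wild type its difference was 0.06 (SE 0.29) with overlapping arrays. It was 1 of 64 members called, or 1.56%, against 3.86% of all tested probe sets. Its adjusted p lay just under the threshold of 0.05, and no member was called when any 1 chl1-5 array other than T0 replicate 2 was left out. Nor was one called with quantile normalization, without the filter on dim probe sets, or with only the chl1-5 arrays in the fit.

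At an unadjusted p under 0.05, 10 of 64 members had a chl1-5 difference, or 15.6%, against 17.0% of all tested probe sets. All 10 were higher at T0.5, where 7.44% of all tested probe sets were. With the replicate number as a block 25 of 64 members had one (39.1%, against 24.4% of all tested probe sets). All 25 were higher, where 9.98% of all tested probe sets were. The median log2 difference was 0.37 over the plastid members, with 43 of 48 above 0, and 0.04 over the mitochondrial members, with 9 of 16 above 0. Over all tested probe sets it was −0.06, with 38.0% above 0. With the probe sets of each gene averaged, the mitochondrial median was 0.19. Within replicate numbers 1, 2 and 3 the plastid median was 0.36, 0.00 and 0.74, so the pooled value rested on numbers 1 and 3. Within all 3 numbers 20 of 48 plastid members (41.7%) were higher at T0.5 and none was lower, where 14.8% and 25.1% of all tested probe sets were. In numbers 1, 2 and 3 there were 44, 24 and 42 of 48 above 0. The counts over all 3 largely follow from these shifts and are not separate support.

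**Figure D2:**
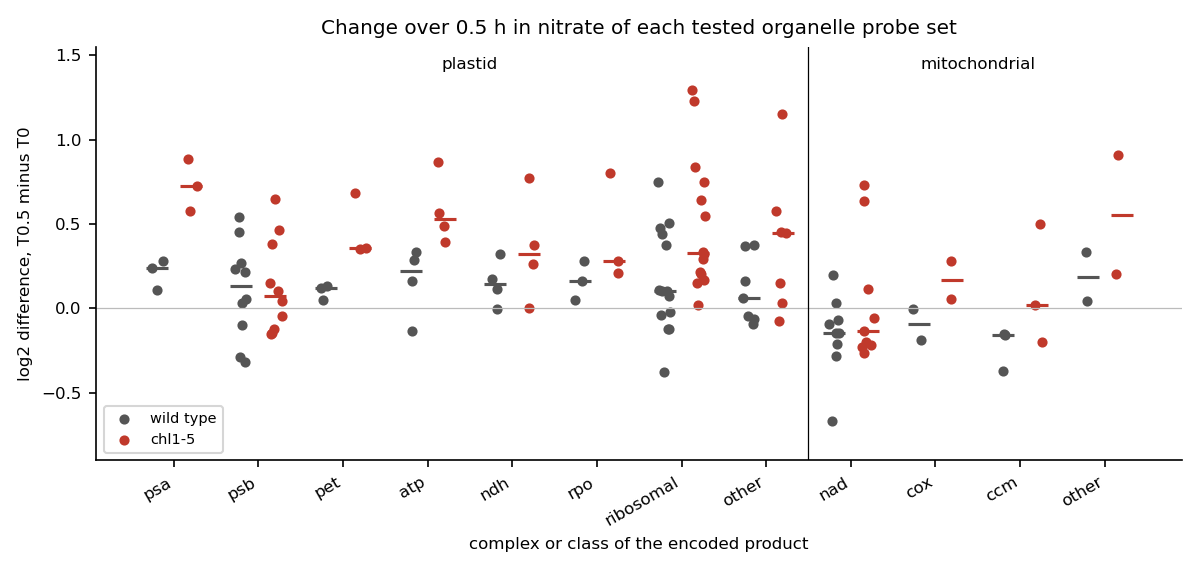
Log2 difference between T0.5 and T0 for every tested organelle probe set, by complex or class, in wild type (grey) and chl1-5 (red). Points are fitted differences over 3 arrays a group and bars are medians; the chl1-5 bar stands above the wild-type bar in every plastid class but psb, where the medians are 0.07 and 0.14.

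With the replicate number as a block, the chl1-5 fit called 8 members, all higher at T0.5. That was 12.5% of the 64, against 9.9% of all tested probe sets, or 5.21% when counted in the higher direction alone. The count was not steady: without any single chl1-5 array it ran from 0 to 11, with 0 when either replicate 3 array was left out, 2 without T0 replicate 2 and 5 without T0.5 replicate 2. It was 10 with number 1 left out of all groups, 4 with number 2 left out and 0 with number 3 left out. The 8 were clpP (blocked adjusted p = 0.031), rps15, atpA, psaI, psaJ, ndhD and petA of the plastid and nad4 of the mitochondrion.

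rps15 had 322.7, 92.3 and 47.6 at T0 and 411.4, 233.6 and 216.9 at T0.5 in chl1-5. Replicate number 1 was again far above numbers 2 and 3, and the groups overlapped, while within the numbers the transcript was higher by 0.35, 1.34 and 2.19. It rose by 1.29 (SE 0.32 with the block, adjusted p = 0.024, against 0.32 without it).

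atpA encodes the alpha subunit of the plastid ATP synthase, and went from 145.7, 237.0 and 172.5 to 246.6, 317.5 and 464.6. Every T0.5 array lay above every T0 array, and it rose by 0.87 (blocked SE 0.23, adjusted p = 0.033, against 0.25 without the block). In wild type its difference was −0.13. The other tested ATP synthase genes, atpB (beta subunit), atpE (epsilon) and atpF (a membrane subunit), had chl1-5 differences of 0.40, 0.49 and 0.57 that did not pass in either fit. All 4 atp members were higher at T0.5 within all 3 numbers.

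Both small photosystem I subunits that were tested, psaI and psaJ, were called with the block. psaI read 392.2, 170.5 and 137.5 at T0 and 506.2, 335.7 and 342.9 at T0.5 (0.89, blocked SE 0.24, adjusted p = 0.035). psaJ read 1880, 1007 and 847.2 and then 2100, 1587 and 1591 (0.57, SE 0.16, adjusted p = 0.043). In both, each T0.5 array lay above the T0 array of its own number although the groups overlapped. psaB, a reaction-centre protein of photosystem I, had 260.1, 202.3 and 182.0 at T0 and 412.0, 318.2 and 331.1 at T0.5 with no overlap, a difference of 0.73 that did not pass (blocked adjusted p = 0.081). The chl1-5 median of photosystem I was 0.73 over its 3 tested members, and 0.57 with the 2 untested ones.

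The remaining 3 called members were of different complexes. ndhD, a membrane subunit of the NADH dehydrogenase-like complex, went from 120.6, 148.8 and 111.3 to 160.6, 216.0 and 287.4 with no overlap (0.77, blocked SE 0.21, adjusted p = 0.040). The other tested ndh genes did not pass: ndhA differed by 0.38, ndhI by 0.26 and ndhC by 0.00. petA, which encodes cytochrome f, went from 808.2, 814.2 and 595.3 to 959.0, 1071 and 805.9 (0.36, SE 0.09, adjusted p = 0.030), higher in each number while the groups overlapped. The other tested pet genes, petB (cytochrome b6) and petL (a small subunit), differed by 0.35 and 0.68 and did not pass. nad4 had 1144, 363.2 and 316.3 at T0 and 1717, 579.2 and 602.2 at T0.5, higher within each number by 0.59, 0.67 and 0.93 (0.73, SE 0.18, adjusted p = 0.022). Without the block none of the 3 passed, with adjusted p of 0.14, 0.40 and 0.58.

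**Figure D3:**
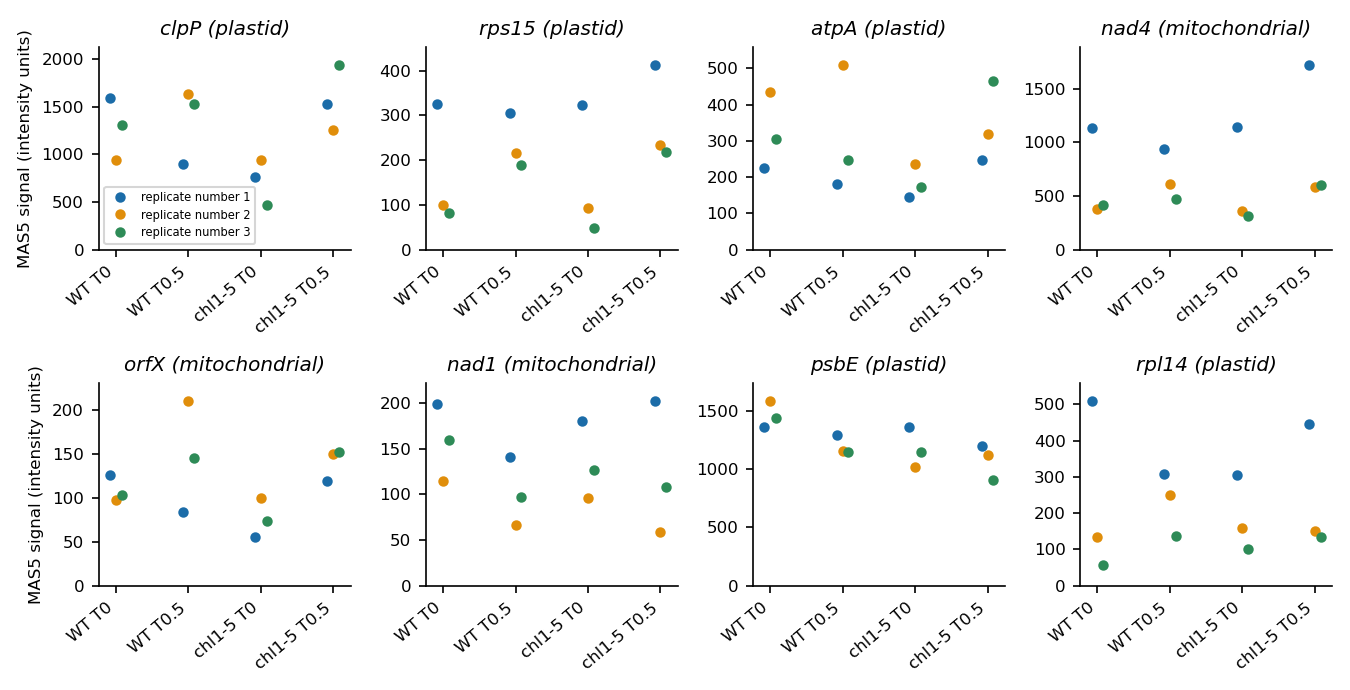
MAS5 signal on each of the 12 arrays for 8 members, on linear axes from 0, coloured by replicate number. clpP and atpA show chl1-5 T0.5 arrays above all chl1-5 T0 arrays, rps15, nad4 and rpl14 show number 1 apart from the others, and nad1 (the probe set with the lowest wild-type difference) keeps number 1 highest and number 2 lowest in all 4 groups.

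In all, 8 plastid members (atpA, atpE, ndhD, ccsA, clpP, petB, psaB and rps4) and 2 mitochondrial members (ccb382 and orfX) had chl1-5 arrays that did not overlap and were higher at T0.5. That was 10 of 64 members, against 7.72% of all tested probe sets. None was lower without overlap, against 12.1%. orfX read 55.8, 100.1 and 73.8 at T0 and 119.5, 150.3 and 152.7 at T0.5 (0.91, SE 0.31), and its blocked adjusted p of 0.05005 lay just over the threshold. ccb382 read 300.9, 304.1 and 248.9 and then 372.3, 373.4 and 465.5 (0.50, SE 0.19), opposite in sign to its wild-type difference.

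Photosystem II stood lowest among the plastid classes in chl1-5, with a median difference of 0.07 and 6 of 10 members above 0. Its 4 negative members were psbE, psbF, psbJ and psbL, between −0.15 and −0.05. These 4 follow each other in the order of plastid genes, and psbE and psbF encode both subunits of cytochrome b559. At the other end of the class were psbK, a small subunit with 0.65 (SE 0.29, adjusted p = 0.27), and psbI, with 0.46. Another run of neighbours, psaJ, rpl33, rps18 and rpl20, had wild-type differences of 0.24, −0.38, −0.12 and 0.51 and chl1-5 differences of 0.57, 0.15, 0.33 and 1.23.

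All 14 ribosomal members were above 0 in chl1-5, with a median of 0.33, as were all 3 rpo members, subunits of the plastid-encoded polymerase (median 0.28). Within number 2 alone, 7 of the 14 (median 0.04) and 1 of the 3 (median −0.24) were above 0. Within all 3 numbers, 5 of the 14 and 1 of the 3 were higher at T0.5. Besides rps15, the widest ribosomal difference was that of rpl20, which read 313.6, 43.6 and 50.9 at T0 and 312.8, 207.1 and 138.1 at T0.5 (1.23, SE 0.78, adjusted p = 0.47, and 0.085 with the block). Its number 1 arrays were level while numbers 2 and 3 were higher at T0.5. Among the other plastid genes, matK, an intron maturase, read 1021, 1314 and 780.1 and then 1376, 1048 and 2415 (0.58, SE 0.32, adjusted p = 0.40). It was lower at T0.5 within number 2 and higher within numbers 1 and 3. rbcL, the large subunit of Rubisco, differed by 0.15 in chl1-5 and by 0.37 in wild type (SE 0.37 in both).

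The mitochondrial members of chl1-5 were mixed in sign. Both cox members, cox1 and cox2 of cytochrome c oxidase, lay above 0 (0.28, SE 0.41, and 0.06, SE 0.32), as did orfX and matR, while of 9 nad probe sets 3 were above 0: nad4, nad6 (0.64, SE 0.31) and 1 of 5 for nad1. The lowest were nad1 (−0.26, the probe set called in wild type), nad4L (−0.23) and nad9 (−0.22), all of complex I and none past the threshold. Over the 9 nad probe sets the median was −0.13, and it was 0.12 with the untested ones. Within numbers 1, 2 and 3 the median of the 9 was 0.01, 0.25 and −0.20. Both cox members were lower at T0.5 within number 1. nad4L read 227.1, 120.7 and 171.7 at T0 and 195.9, 99.9 and 149.1 at T0.5, lower within each number while the groups overlapped. matR read 132.5, 114.7 and 155.2 and then 155.2, 169.5 and 136.3 (0.20, SE 0.17).

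**Figure D4:**
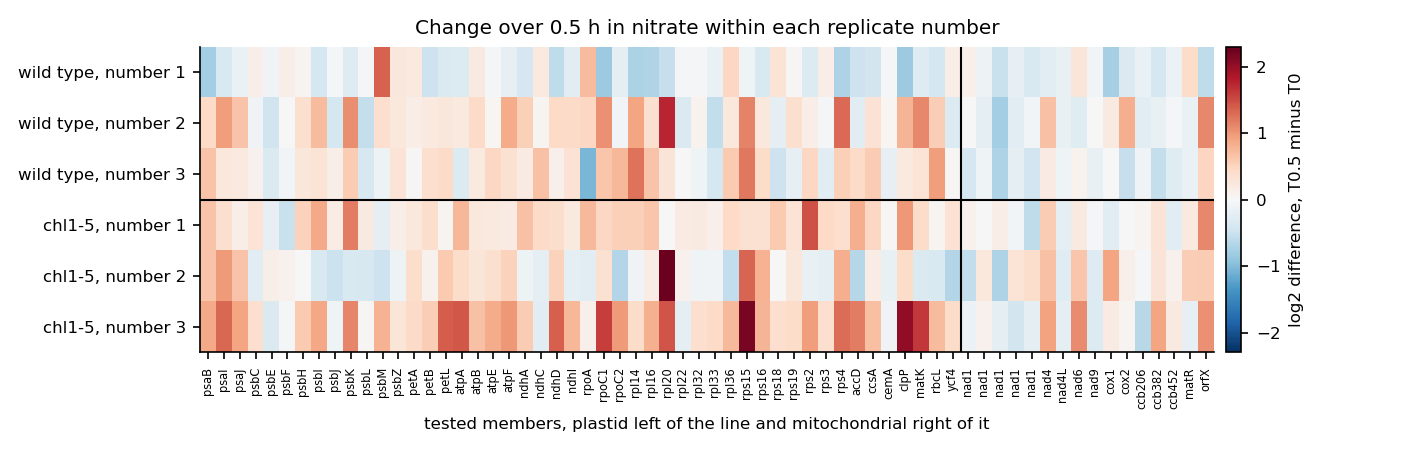
Log2 difference between T0.5 and T0 within each replicate number, for the 64 tested members in wild type (upper 3 rows) and chl1-5 (lower 3 rows), with red higher and blue lower at T0.5. The wild-type row of number 1 is mostly blue over the plastid members (14 of 48 above 0), and the chl1-5 rows of numbers 1 and 3 are mostly red (44 and 42 of 48 above 0), with number 2 evenly split (24 of 48).

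The difference between the nitrate responses of the genotypes was tested directly and called 0 of 64 members, against 0.035% of all tested probe sets. At an unadjusted p under 0.05 there were 3 members, ccb382, clpP and rpl33 (4.69%, against 1.94% of all tested probe sets). The blocked fit left 5 at that level, all with the higher value in chl1-5. They were 7.81% of the 64, against 3.75% of all tested probe sets, or 1.75% in that direction. clpP had the largest difference of responses, 1.09 (SE 0.41, adjusted p = 1.00), so that its rise in chl1-5 was not shown to differ from wild type. The within-number medians of the plastid members differed by genotype most in number 1, where they were −0.18 in wild type and 0.36 in chl1-5. In number 2 they were 0.30 and 0.00, the other way round, and in number 3 they were 0.28 and 0.74.

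Averaged over both genotypes, the nitrate response called 0 members, against 14.0% of all tested probe sets. At an unadjusted p under 0.05 it left 6, all higher (9.38%, against 28.6% of all tested probe sets, or 9.89% counted as higher). The blocked fit left 25 at that level (39.1%, against 36.8%), of which 23 were higher (35.9%, against 12.2% counted as higher). With the block it called 10, or 15.6%, against 24.2%. Of these 9 were higher, against 9.31% of all tested probe sets counted that way: petA, psbH, psaI, psaJ, rps4, rps15, rpl20, nad4 and orfX. They ran from 0.25 for petA to 1.02 for rps15, and nad1 (1 probe set) fell by 0.47 on the log2 scale. The blocked count was 2 without WT T0 replicate 2, chl1-5 T0 replicate 3 or chl1-5 T0.5 replicate 3, and between 3 and 6 without WT T0 replicate 3, WT T0.5 replicate 2 or WT T0.5 replicate 3. It was 20 without WT T0 replicate 1 and 16 without WT T0.5 replicate 1. With number 1, 2 or 3 left out of all groups it was 20, 4 and 1.

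Before nitrate, no member differed between genotypes past the threshold. The test called 0 of 64, against 0.028% of all tested probe sets. At an unadjusted p under 0.05, 4 members (6.25%) were lower in chl1-5, against 0.574% of all tested probe sets. The blocked fit left 7 at that level, all lower (10.9%, against 1.34% of all tested probe sets counted as lower). The largest difference was that of clpP, −0.85 (SE 0.29, adjusted p = 1.00), whose WT T0 arrays read 1592, 945.8 and 1312 against 765.9, 936.8 and 470.1 in chl1-5, all below. Next in size among plastid members were atpA, with −0.78 (SE 0.37), and accD, a subunit of acetyl-CoA carboxylase, with −0.68 (SE 0.42). ccb382 had the largest mitochondrial difference, −0.63 (SE 0.19). These genes are named by size, and not all of them are among the 4 above. The median was −0.22 over plastid members, with 7 of 48 above 0, and −0.10 over mitochondrial members, beside −0.01 over all tested probe sets. These values and the chl1-5 responses share the chl1-5 T0 arrays, so they are not independent of each other. Without chl1-5 T0 replicate 3 the plastid median was −0.02, and without WT T0 replicate 1 it was −0.07. These arrays had actin 3'/5' ratios of 18.4 and 15.2, the highest of the 12, with 15.1 on chl1-5 T0.5 replicate 2 close behind. Their GAPDH ratios were 1.24 and 0.86 and their ubiquitin ratios 2.00 and 1.68, and WT T0 replicate 1 was the lowest array for both. The part of these ratios in the median was not tested.

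After 0.5 h in nitrate the genotypes also called 0 members, against 0.224% of all tested probe sets. At an unadjusted p under 0.05, rpl33 and rps18 were higher in chl1-5. They were 3.12% of the 64 members, against 2.9% of all tested probe sets, or 1.23% in the higher direction alone. The blocked fit left 4 at that level, all higher (6.25%, against 5.58%, or 2.78% in that direction). rps18, of the small ribosomal subunit, read 517.4, 469.5 and 484.0 in WT T0.5 and 758.4, 688.0 and 572.1 in chl1-5 T0.5 (0.45, SE 0.20, adjusted p = 1.00). The chl1-5 arrays all lay above. rbcL had the lowest difference, −0.45 (SE 0.37). The median was 0.05 over plastid and 0.08 over mitochondrial members, and within the numbers the plastid median was 0.26, −0.38 and 0.22.

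Many organelle probe sets differed between the replicate numbers. A moderated F test of the 3 numbers beside the groups called 27 of 64 members, or 42.2%, against 14.7% of all tested probe sets: 19 of 48 plastid and 8 of 16 mitochondrial. The median range between the highest and lowest number was 0.52 on the log2 scale over plastid and 0.53 over mitochondrial members, beside 0.23 over all tested probe sets. The count was 8 without the arrays of number 1, where the mean nitrate response called 10 members and 20 with the block, 17 without those of number 2, and up to 27 in the other repeats that left arrays out.

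The genomes took different orders over the numbers. The median deviations for numbers 1, 2 and 3 were 0.16, 0.00 and −0.15 over plastid members and 0.21, −0.29 and 0.02 over mitochondrial ones. Number 1 was highest for 30 of 48 plastid and 12 of 16 mitochondrial members, beside 5471 of all 14291 tested probe sets. Of the called members, 15 of 19 plastid ones were lowest in number 3 and 7 of 8 mitochondrial ones were lowest in number 2. In 9 members (petL, psaJ, rpl14, rpl20, rpl36, rps15, cox1, nad4 and nad4L) all 4 arrays of number 1 lay above the other 8, against 3.06% of all tested probe sets.

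The complexes differed as well. Ribosomal members were highest in number 1 in 12 of 14 cases and photosystem I members in 3 of 3, while 6 of the 7 other plastid members (accD, ccsA, cemA, matK, rbcL and ycf4) were highest in number 2, as were atpA and atpB. The exception among these 7 was clpP, whose mean signal was nearly level over the numbers (range 0.03). Of the 9 nad probe sets 7 were highest in number 1 and 2, both for nad1, in number 3. All were lowest in number 2 except nad4 and nad6, which were lowest in number 3. matR, like clpP, was nearly level, with mean signals of 144.2, 142.7 and 143.1 (range 0.02).

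**Figure D5:**
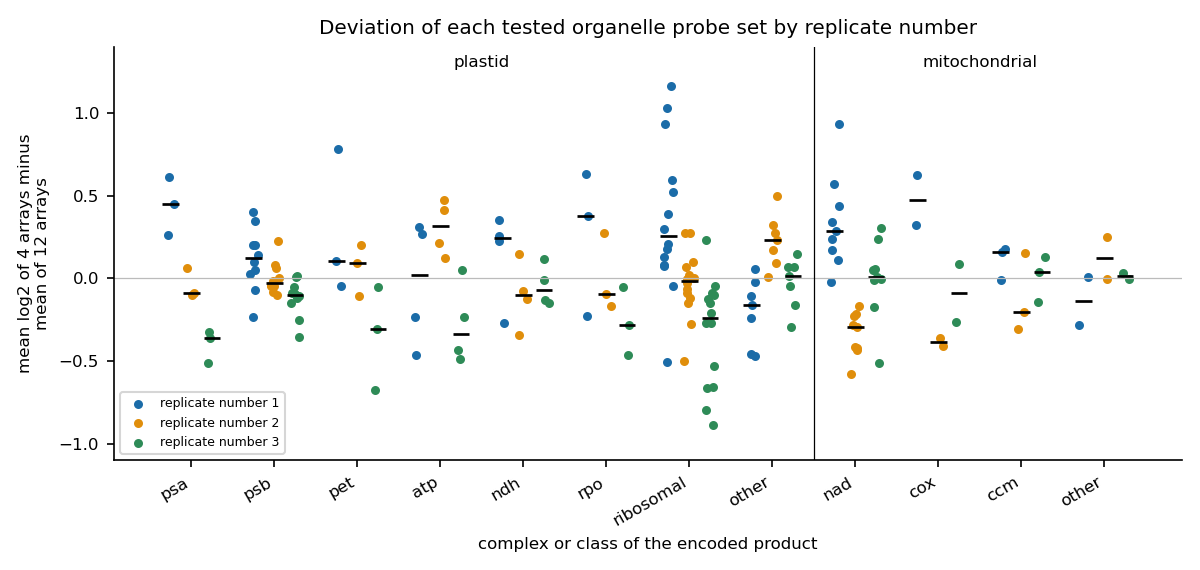
Mean log2 signal of the 4 arrays of each replicate number minus the mean of all 12, for every tested member by complex or class. Points are probe sets and bars are medians; number 1 lies highest for the psa, ribosomal, nad and cox classes, number 2 for the atp class and the other plastid genes, and number 2 lowest for nad and cox.

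nad4 had the smallest adjusted p for the replicate number, 1.6e-04, with mean signals of 1202, 470.2 and 440.9 in numbers 1, 2 and 3. nad4L, also of complex I, had 203.0, 111.2 and 149.5 (adjusted p = 0.0016), and cox1, the catalytic subunit of cytochrome c oxidase, 760.6, 384.0 and 411.2 (adjusted p = 0.0052). Number 1 was the highest in all 3 genes. rpl14, of the large plastid ribosomal subunit, had the widest range, 1.92, with 382.1, 168.5 and 101.0 (adjusted p = 0.0019). psbZ, a small photosystem II protein, had 592.6, 435.6 and 350.4 (adjusted p = 0.0022). petA was highest in number 2, with 907.8, 972.7 and 683.5 (adjusted p = 0.0028), and atpB there too, with 3107, 5066 and 3101 (adjusted p = 0.0079).

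Some RNA measures moved with the numbers. The control probe set for 25S ribosomal RNA read between 98.5 and 109.9 on the arrays of number 2, between 104.8 and 186 on those of number 1 and between 142.9 and 187.9 on those of number 3. The GAPDH 3'/5' ratio was 0.86, 1.03, 0.97 and 1.23 on number 1 (WT T0, WT T0.5, chl1-5 T0 and chl1-5 T0.5) and between 1.12 and 1.38 on the other 8 arrays. The control for 5S ribosomal RNA read between 17.2 and 27.9 on number 1, 9.5 and 66.3 on number 2, and 63.4 and 86.5 on number 3. The actin 3'/5' ratio did not follow the numbers, with 15.2, 12.6, 10.5 and 9.72 on number 1 and between 10.5 and 18.4 on the others. The part of any of these in the organelle signals was not tested.

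Few nuclear genes of the same machinery could be followed by name. Of 12 named probe sets for nuclear photosynthesis genes 10 were tested, and 1 fell in wild type, ATPC1, the gamma subunit of the plastid ATP synthase (−0.49, SE 0.12, adjusted p = 0.030). In chl1-5 ATPC1 had −0.33 (adjusted p = 0.17), the smallest p of the 10, and their median was 0.00. Of 13 for nuclear respiratory-chain genes 9 were tested, with medians of −0.16 in wild type and −0.10 in chl1-5 and no adjusted p below 0.31 in the first or 0.37 in the second. For the replicate number 2 of the 10 (LHCB4.1 and LHCB4.2, antenna proteins of photosystem II) and 3 of the 9 (CYTC-1 and CYTC-2, both cytochrome c, and NDB2, an alternative NADH dehydrogenase) passed. The named factors of organelle gene expression, CRR21, CRR22 and CRR28 for the plastid and OTP43 and OTP87 for the mitochondrion, were too dim to be tested.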

How the data were processed

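The deposited intensity values were MAS5 signals, per the submitters' processing notes (version not given in the sources used here), and the authors had scaled each array before deposit. RNA was TRIzol-extracted and 6 µg labelled per array, per the labels. Probe sets took names from the platform annotation, and plastid genes matched TAIR10.1 by gene number, mitochondrial ones by symbol or synonym. Signals were raised to a floor of 0.1 (2 values were 0) and put on the log2 scale. With limma 3.58.1 under R 4.3.3, 4 group means were fitted (lmFit) and compared with a trended variance prior (eBayes) over 12 arrays and 14291 probe sets. Tests were two-sided with Benjamini-Hochberg adjustment over all of them, called under 0.05, and checked on simulated data. The number of arrays limits the precision.

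Replicate numbers come from the titles, and the labels describe each as 1 independent experiment. Arrays were therefore taken as paired by number, and 18 of 18 same-number pairs deviated together (r 0.21 to 0.77 over all tested probe sets, highest other pair −0.01; 0.17 to 0.76 over the tested organelle members, where 1 other pair reached 0.51), so blocked values stand beside results they change.

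Genes named came mainly from every called member, the highest and lowest mean signal of each complex, the 3 largest differences each way per genome and comparison, the 3 smallest p and widest ranges for the replicate number, and clpP, ndhA, ndhI, rps15, nad4, nad4L, matR, ccb382 and orfX. Members and lists were chosen with earlier results of these data known. Shoot and root marker lists yielded 1 and 2 named probe sets (RCA; EXPA7, NRT2.5). Alternatives were scaling, filter, floor, arrays fitted, block, probe sets averaged per gene, and arrays left out.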

Additional observations from a re-analysis of the deposited data

How the results depend on the processing

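The difference of responses and the genotype differences at T0 and T0.5 called 0 members under every alternative run. The wild-type response called 1 with the replicate block, and between 0 and 1 with arrays left out. The chl1-5 response called 0 with quantile normalization, with no filter on dim probe sets and with only the arrays compared, 8 with the replicate block, and between 0 and 5 with arrays left out (5 without replicate number 1). The mean response called 10 with the replicate block and between 0 and 10 with arrays left out. The replicate number term called between 8 and 27 with arrays left out, and between 22 and 28 under scaling, filter, floor and averaging. The cause of these changes was not tested. In the blocked fits, repeats without arrays (chosen after seeing the data) called between 0 and 4 members in wild type, 0 and 11 in chl1-5 and 1 and 20 in the mean response. Medians moved by less than the spread between replicates (0.25 plastid, 0.26 mitochondrial). That spread was wider than every median but the chl1-5 plastid one, so staying within it does not show that a median was steady. With arrays left out the chl1-5 plastid median stayed between 0.23 and 0.53, and the wild-type one between 0.01 and 0.32. The plastid median of the genotype difference at T0.5 turned sign, between −0.06 and 0.22. So did the mitochondrial medians of the wild-type response (−0.29 to 0.02; above 0 only without WT T0.5 replicate 2), the chl1-5 response (−0.16 to 0.19, lowest without chl1-5 T0 replicate 2) and the genotype difference at T0 (−0.24 to 0.13, highest without chl1-5 T0 replicate 2). The signal of 28 members was too dim to test.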
